A study of Mus musculus with 40 samples.

Results

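Chemokines are small secreted proteins that attract leukocytes, and their receptors are membrane proteins that pass the signal on through G proteins. The chemokines and chemokine receptors were taken from the gene annotation as the protein-coding genes named Ccl, Cxcl, Ccr or Cxcr with a number, together with Cx3cl1 and Cx3cr1. This gave 53 of 21938 genes, of which 36 were ligands and 17 receptors. The ligands were 23 of the CC class, 12 of the CXC class and Cx3cl1. The receptors were 10 of the CC class, 6 of the CXC class and Cx3cr1.

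The class names describe the spacing of the conserved cysteines near the start of the ligand. CXC ligands such as Cxcl1, Cxcl2 and Cxcl5 attract neutrophils through Cxcr2, while Cxcl9 and Cxcl10 are induced by interferon and act on T cells through Cxcr3. CC ligands such as Ccl2, Ccl7 and Ccl12 attract monocytes, and Ccl11 attracts eosinophils through Ccr3. In fat, stromal cells are known to make several of these ligands, whereas most of the receptors are known from leukocytes.

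H3K27ac, the acetylation of lysine 27 of histone H3, marks active promoters and enhancers and was measured by ChIP-seq in primary preadipocytes from the inguinal white fat of C57BL/6 mice 8 to 12 weeks old, grown on collagen. Wild-type (WT) cells were compared with double knockout (DKO) cells, Hmgn1-/- Hmgn2-/-, which lack the nucleosome-binding proteins HMGN1 and HMGN2. Confluent preadipocytes (day 0) and cells at days 3, 6 and 9 of differentiation were studied. In both genotypes, differentiation was induced with insulin, dexamethasone, IBMX, T3 and rosiglitazone. Of the cells studied, those of days 6 and 9 had then been moved to insulin and T3 alone, and those of day 3 had not. Each of the 8 groups had 3 libraries, which the paper calls biological replicates. Whether these came from separate animals is not stated for these libraries. The p-values thus measure the spread between these samples, which may not be that between animals. In such cultures fewer cells with the mark at a gene and less mark per cell cannot be told apart.

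The 24 peak lists held 47448 to 115923 peaks, and the number of reads behind them is unknown. DKO day 0 replicate 2 stood apart with a median peak width of 1076 bp and 96.4 Mb covered, against 313 to 376 bp and 20.7 to 68.8 Mb in the other lists, and WT day 3 replicate 3 had the highest fold enrichment of a peak, 159 against 33.2 to 60.6. All 12 WT libraries and 0 DKO libraries had a peak at Hmgn2, while Hmgn1 had a peak in all 24, so that a peak at Hmgn1 does not check the genotype. Of 7 adipocyte markers, 6 were higher at day 9 than at day 0. Of 8 preadipocyte markers, Pdgfra, Pdgfrb, Ly6a and Dcn had a peak in 24 libraries. Dpp4 had one in 20, Pi16 in 17, Cd34 in 15 and Dlk1 in 3. Between day 0 and day 9 Pi16 fell, and Cd34, without a peak at day 0, rose (both adjusted p = 0.0203, exact permutation test). A peak at Pdgfra, Pdgfrb, Ly6a or Dcn thus does not tell the days apart. Of 10 leukocyte markers, Cd3e had no peak in any library, whereas the macrophage genes Csf1r, Itgam and Spi1 had peaks in 24.

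Each gene was measured by the kb under peaks in its span, from 5 kb upstream of the start to the end of the gene. Of the 53 chemokine and receptor genes, 14 had a peak in all 24 libraries, 26.4% against 50.9% of all genes. A further 13 had no peak in any library, 24.5% against 27.4% of all genes. These were the ligands Ccl19, Ccl20, Ccl21a, Ccl21b, Ccl22, Ccl24, Ccl27b and Cxcl17 and the receptors Cxcr1, Cxcr2, Ccr4, Ccr6 and Ccr8. Cxcr2, the receptor for the neutrophil attractants, thus had no peak in libraries that had peaks at the ligand genes Cxcl1 and Cxcl5. Ccl21a and Ccl21b, and Ccl27a and Ccl27b, are near-identical copies whose reads may not be placed uniquely, and their values are uncertain. Ccl17 and Ccl28 had a peak in 2 libraries and Ccl26 and Ccr2 in 1. The other 36 members had a peak in at least 3 libraries and were tested with 15204 genes in all, a filter that a gene can pass through a single group in which it is high.

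**Figure D1:**
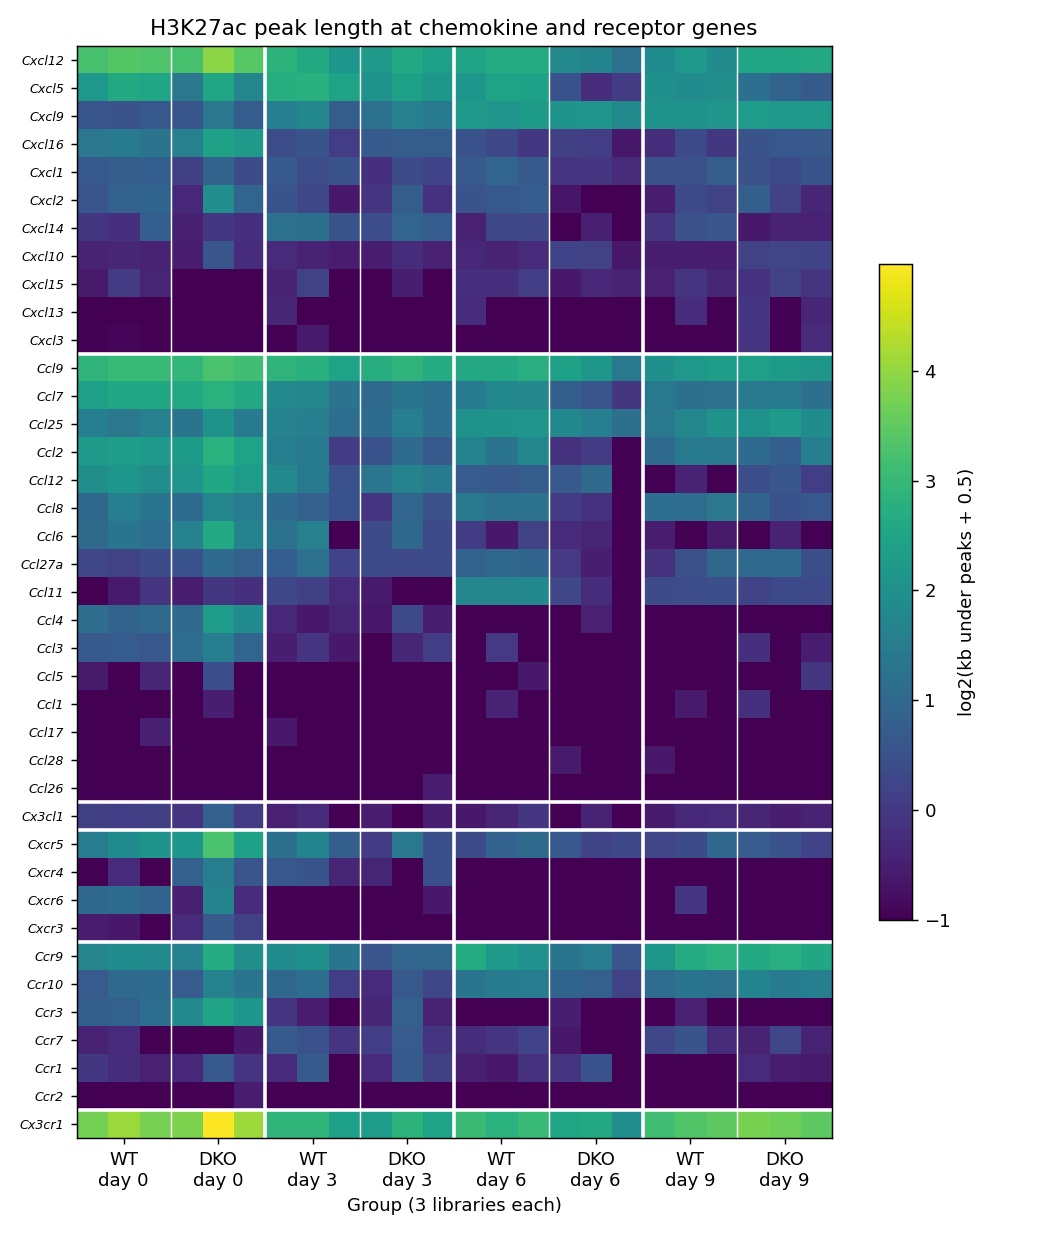
Length under H3K27ac peaks, as log2(kb + 0.5), at 39 chemokine and receptor genes with a peak in at least 1 of 24 libraries, with 3 columns for each group. White lines part CXC ligands, CC ligands, Cx3cl1, CXC receptors, CC receptors and Cx3cr1 from top to bottom. Ccr3, Ccl3 and Ccl4 are brightest at day 0, Cxcl9 is brighter from day 6 on and Cxcl5 is darker in DKO than in WT at days 6 and 9.

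A peak in the span was not always a peak at the start. Within 1 kb of an annotated transcript start, Cxcl1, Cxcl5, Cxcl12, Cxcl16, Ccl7, Ccl9 and Ccl25 had a peak in 24 libraries, Ccl8 in 23 and Cxcl14 in 22. Cxcl9, Cxcl10, Ccr9 and Cxcr5 had a peak in their spans in 24 libraries and near a start in 0. The peak in the span of Cxcl10 lay in a single region, chr5:92353098-92354277 of mm10, which ends 4.21 kb before the start.

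Some spans hold other genes, and a peak in a shared stretch cannot be assigned to one of them. Cx3cr1 is annotated over 168 kb with 5 other genes, Ccr9 over 106 kb with Slc6a20a and Lztfl1, and Cxcr5 over 50.1 kb with Bcl9l. Cxcl9 and Cxcl10 share their spans with Art3, Ccr10 with Cntnap1, Ccl27a with Il11ra1 and Cxcl16 with Zmynd15. Others were Ccl25 with Elavl1, Ccl2 with Gm17268, Cxcr6 with Fyco1 and Cxcl15 with Cxcl3.

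Promoter windows, 250 bases before to 50 after the start, were taken from RefSeq (GRCm38.p6) for 39 of the 53 members. In these 46 windows letters of known motifs were searched on both strands, as a description and not as bound sites. NF-kB, a factor that induces many chemokines in inflammation, was searched as GGANNTTCC, which was in 15.2% of the member windows and in 4.26% of all 32851 windows. The members with it were Cxcl1, Cxcl2, Cxcl3, Cxcl10, Ccl1, Ccl12 and Ccr3. An interferon response motif, TTCNNTTTC, was in 17.4% of member windows against 8.56% of all, and Cxcl9, Cxcl10 and Cxcl14 were among these members. AP-1 as TGANTCA was in 19.6% against 7.81%, C/EBP as TTNNGCAA in 13% against 10.8%, and a TATA box, TATAAA, in 23.9% against 13.6%. Windows of the same gene can overlap, so a match can be counted more than once. The C/EBP match of Ccl27a and that of its near-identical copy Ccl27b were each counted in more than 1 window. The other members with C/EBP letters were Ccl21a and Cxcl13, and the AP-1 members included both copies. The letters of the NF-kB and interferon response motifs can overlap.

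The 250 bases before the start are shown for 3 ligand genes with less peak length in DKO at an unadjusted p under 0.05, Cxcl1, Cxcl14 and Ccl8, and for Cxcl10, which had more. They lie at chr5:90890995-90891244 (plus strand), chr13:56296552-56296801 (minus), chr11:82114935-82115184 (plus) and chr5:92348890-92349139 (minus). Capitals mark the matches, which are NF-kB in Cxcl1, the interferon response motif in Cxcl14, a TATA box in Ccl8 and, from left to right, the interferon response motif, NF-kB and AP-1 in Cxcl10.
Cxcl1: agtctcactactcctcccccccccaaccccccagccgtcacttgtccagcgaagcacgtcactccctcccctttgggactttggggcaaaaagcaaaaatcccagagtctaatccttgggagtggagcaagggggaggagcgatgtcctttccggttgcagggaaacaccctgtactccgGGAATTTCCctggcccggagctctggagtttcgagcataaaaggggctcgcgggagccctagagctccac
Cxcl14: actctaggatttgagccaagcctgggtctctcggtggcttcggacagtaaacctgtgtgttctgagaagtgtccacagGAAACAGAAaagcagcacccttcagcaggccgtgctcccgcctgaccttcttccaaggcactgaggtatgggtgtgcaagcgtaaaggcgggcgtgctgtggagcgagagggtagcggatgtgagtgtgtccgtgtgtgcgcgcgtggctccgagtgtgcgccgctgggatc
Ccl8: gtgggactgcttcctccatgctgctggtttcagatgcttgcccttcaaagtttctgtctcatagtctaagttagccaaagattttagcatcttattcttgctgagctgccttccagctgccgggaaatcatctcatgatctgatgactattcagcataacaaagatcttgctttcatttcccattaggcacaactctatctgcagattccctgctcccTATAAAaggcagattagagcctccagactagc
Cxcl10: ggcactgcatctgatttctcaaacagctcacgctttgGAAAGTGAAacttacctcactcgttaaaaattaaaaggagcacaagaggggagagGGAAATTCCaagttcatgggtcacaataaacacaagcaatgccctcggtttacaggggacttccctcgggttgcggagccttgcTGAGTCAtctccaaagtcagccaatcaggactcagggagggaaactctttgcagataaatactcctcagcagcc

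The first comparison asked whether the mark at these genes differed between WT and DKO cells over the 4 days. Cxcl5, a neutrophil attractant, had 2.31 kb less under peaks in DKO on average, and of the 36 members it was the single one past the threshold. An exact permutation test, with genotypes exchanged within each day, gave p = 6.25e-05 and adjusted p = 0.0432 over all genes. Thus 1 member was called lower, where 0.125% of all genes were, and 0 were called higher, where 0.0263% were. At an unadjusted p under 0.05 in the same test, 6 members were lower (16.7%, against 5.91% of all genes) and 3 were higher (8.33%, against 3.95%). The median difference was −0.00617 kb over the members and −0.00708 kb over all genes.

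Cxcl5 lies on the plus strand at chr5:90759360-90761624 of mm10. At day 0 it had 4.06, 5.66 and 5.21 kb under peaks in the WT libraries and 2.07, 5.21 and 2.81 kb in the DKO libraries. The second DKO value came from the list with wide peaks, and the other DKO values lay under every WT value. At day 3 the WT libraries had 6.12, 6.4 and 5 kb and the DKO libraries 3.67, 4.74 and 4 kb. At day 6 the values were 3.92, 4.97 and 4.85 kb in WT and 0.929, 0.347 and 0.528 kb in DKO, and at day 9 they were 3.5, 3.15 and 3.37 kb and 1.75, 1.36 and 1.12 kb. The genotypes did not overlap at days 3, 6 and 9. The differences were −1.61, −1.71, −3.98 and −1.93 kb at days 0, 3, 6 and 9. Without DKO day 0 replicate 2 the mean difference was −2.54 kb, with adjusted p = 0.00998 in the exact permutation test. With 20000 peaks from every list it was −1.12 kb with adjusted p = 0.0629 in the exact test. The call was also lost with peaks of −log10 q of at least 5 (adjusted p = 0.128, exact), with windows of 250 bp either side of the summit (0.0893), with 20 kb upstream (0.155) and by the best rank (0.117). A replicate block lost the call too, and 0 of all genes were called there. It was kept without the upstream part (0.0365), over the RefSeq span (0.0455) and without WT day 3 replicate 3 (0.0292).

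The strongest peak at Cxcl5 also had a lower fold enrichment in DKO on 3 of the days. At day 0 it was 11.9, 15 and 11 in WT and 8.63, 6.84 and 10.6 in DKO, at day 6 it was 7.2, 12.1 and 11.6 and 5.85, 5.42 and 5.67, and at day 9 it was 10, 10.1 and 10.5 and 7.84, 7.39 and 8.32. The genotypes did not overlap on these days. At day 3 they did, with 15, 13 and 9.84 in WT and 12.5, 13.2 and 13.8 in DKO. By −log10 q, that peak ranked 8305, 8449 and 10354 in the WT lists of day 3 and 5781, 7871 and 5461 in DKO. A low rank is a strong peak, so all DKO libraries were stronger there, and weaker at days 0, 6 and 9. The highest fold of any peak at day 6 was 33.2 to 49.3 in DKO lists and 55.4 to 59 in WT. The share of all genes apart in fold is not given.

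Peaks were missing in DKO libraries beside the start of Cxcl5 and not over it. With boundaries from the lists other than the one with wide peaks, the gene had 4 regions. The region over the start, chr5:90756916-90760259, had a peak in 12 WT and 12 DKO libraries. The next region, chr5:90760408-90762938, begins 1.11 kb past the RefSeq start, chr5:90759298. It had a peak in 12 WT and 5 DKO libraries, and in no DKO library of day 6 or 9. Of the upstream regions, chr5:90755065-90756600 had a peak in 12 WT and 8 DKO libraries, and chr5:90754251-90754878 in 10 and 4.

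**Figure D2:**
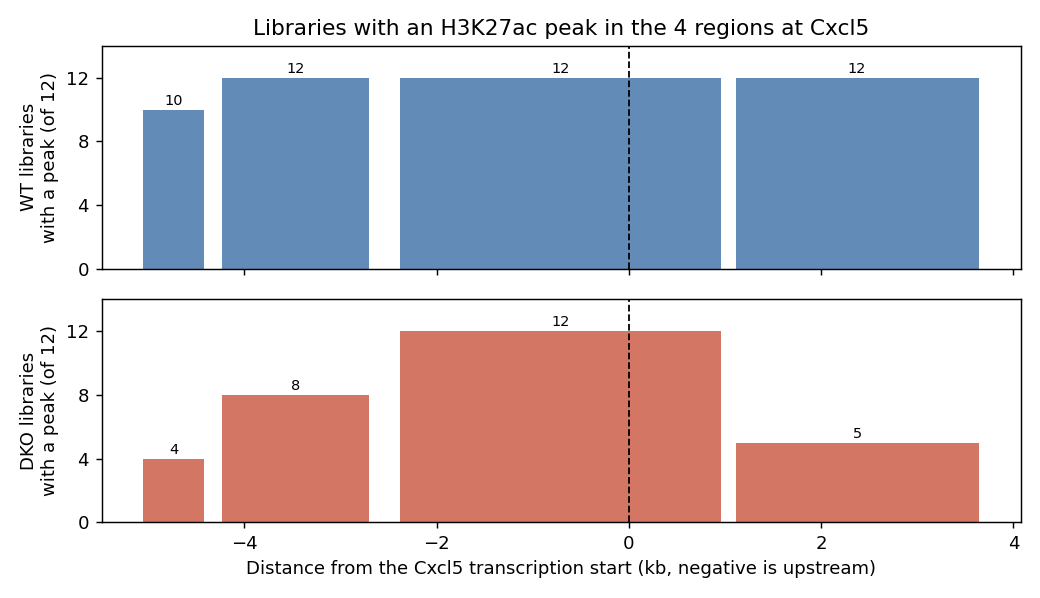
Number of libraries, of 12 per genotype, with an H3K27ac peak in each of the 4 regions at Cxcl5 (bars, as wide as the region). The horizontal axis is the distance from the RefSeq transcription start in kb (dashed line at 0). The region over the start has a peak in 12 libraries of both genotypes, and the region downstream has one in 12 WT and 5 DKO libraries.

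Cxcl1, a neutrophil attractant in the same chromosome 5 cluster, had the next lowest p. It had 1.07, 1.2 and 1.23 kb in WT and 0.591, 1.37 and 0.811 kb in DKO at day 0, and 1.1, 0.834 and 0.937 kb and 0.371, 0.804 and 0.645 kb at day 3. Its libraries of day 6 had 1.08, 1.42 and 1.1 kb in WT and 0.424, 0.465 and 0.313 kb in DKO, and at day 9 0.891, 0.906 and 1.2 kb and 0.906, 0.757 and 0.968 kb. DKO libraries were all lower at days 3 and 6 and overlapped with WT at days 0 and 9. Over the 4 days the difference of −0.378 kb had p = 0.00151 and adjusted p = 0.173 in the exact permutation test. Without DKO day 0 replicate 2 it was −0.433 kb with adjusted p = 0.0258 in the same test, so the call depended on this library. Leaving the library out also raised the share of all genes called, from 0.151% to 1.37%. In the same cluster, Cxcl2 differed by −0.083 kb (adjusted p = 0.99 in the exact test), Cxcl15 had no peak in the DKO libraries of day 0, and Cxcl3 had a peak in 4 libraries of all 24.

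Cxcl14, a chemokine that many tissues make without inflammation, had group means that were lower in DKO on every day. The WT libraries had 0.476, 0.375 and 1.22 kb at day 0, next 1.89, 1.8 and 0.963 kb at day 3, then 0.234, 0.726 and 0.71 kb at day 6 and finally 0.443, 0.889 and 1.02 kb at day 9. The DKO libraries had 0.221, 0.473 and 0.377 kb, 0.831, 1.44 and 1.16 kb, 0, 0.225 and 0 kb and 0.166, 0.255 and 0.232 kb on the same days. The genotypes overlapped at days 0 and 3 and did not at days 6 and 9. The average difference of −0.447 kb had p = 0.00189 and adjusted p = 0.188 in the exact permutation test.

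Of the CC ligands, Ccl11 and Ccl8 had an unadjusted p under 0.05. Ccl11, the eosinophil attractant, had its longest peaks in WT at day 6. The WT libraries had 0, 0.176 and 0.431 kb at day 0, next 0.725, 0.587 and 0.337 kb at day 3, then 2.87, 2.86 and 2.96 kb at day 6 and finally 0.807, 0.837 and 0.875 kb at day 9. The DKO libraries had 0.201, 0.475 and 0.384 kb, 0.174, 0 and 0 kb, 0.707, 0.358 and 0 kb and 0.666, 0.759 and 0.738 kb. All DKO values lay under the WT values at days 3, 6 and 9, by 2.54 kb in the means of day 6 and by 0.119 kb in those of day 9. The region over the Ccl11 start, chr11:82057828-82058353, had a peak in 3 WT libraries of day 6, in 1 DKO library of day 0 and in no other. The mean difference of −0.75 kb had p = 0.00622 and adjusted p = 0.261 in the exact permutation test.

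Ccl8, the other CC ligand, had 1.5, 2.43 and 1.99 kb in WT and 1.62, 2.76 and 2.34 kb in DKO at day 0. At day 3 it had 1.62, 1.28 and 0.92 kb in WT and 0.425, 1.43 and 0.896 kb in DKO. Day 6 gave 2.15, 1.85 and 1.89 kb in WT and 0.529, 0.423 and 0 kb in DKO, and at day 9 1.78, 1.69 and 2.07 kb and 1.37, 0.918 and 1.04 kb. The genotypes were apart at days 6 and 9 and overlapped before. Over the 4 days the difference of −0.618 kb had p = 0.0114 and adjusted p = 0.323 in the exact permutation test.

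Ccr7, the receptor that guides cells to lymph nodes, was the single receptor that was lower with an unadjusted p under 0.05, by −0.237 kb with p = 0.0253 and adjusted p = 0.405 in the exact test. The WT libraries had 0.237, 0.323 and 0 kb at day 0, next 1.12, 0.929 and 0.44 kb at day 3, then 0.354, 0.424 and 0.649 kb at day 6 and finally 0.713, 0.969 and 0.352 kb at day 9. The DKO libraries had 0, 0 and 0.167 kb, 0.582, 1.13 and 0.44 kb, 0.155, 0 and 0 kb and 0.254, 0.68 and 0.255 kb. They were apart at day 6 only.

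Cxcl16, Cxcl10 and Ccr3 were the 3 members with more in DKO at an unadjusted p under 0.05. Cxcl16, a membrane-bound ligand of Cxcr6, had 2.08, 2.3 and 1.95 kb in WT and 2.54, 4.81 and 4.09 kb in DKO at day 0, and 0.828, 0.973 and 0.559 kb and 1.12, 1.19 and 1.21 kb at day 3. At day 6 the values were 0.922, 0.726 and 0.482 kb in WT and 0.594, 0.557 and 0.155 kb in DKO, and at day 9 0.363, 0.76 and 0.479 kb and 0.947, 1.07 and 1.09 kb. DKO libraries were all higher at days 0, 3 and 9 and overlapped with WT at day 6. The average difference of 0.579 kb had p = 0.00884 and adjusted p = 0.298 in the exact permutation test.

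Cxcl10, the interferon-induced ligand of Cxcr3, had 0.238, 0.284 and 0.258 kb in WT and 0.198, 1.02 and 0.342 kb in DKO at day 0, and 0.333, 0.244 and 0.18 kb and 0.193, 0.354 and 0.228 kb at day 3. At day 6 it had 0.297, 0.24 and 0.321 kb in WT and 0.655, 0.627 and 0.155 kb in DKO, and at day 9 0.209, 0.211 and 0.182 kb and 0.612, 0.679 and 0.649 kb. The genotypes were apart at day 9 only, and all of these peaks lay in the upstream region given above. The mean difference of 0.226 kb had adjusted p = 0.278 in the exact permutation test. Ccr3, the receptor of Ccl11, had 1.26, 1.3 and 1.71 kb in WT and 2.99, 5.09 and 3.89 kb in DKO at day 0, where the genotypes were apart, and 0.425, 0.189 and 0 kb and 0.275, 1.28 and 0.253 kb at day 3, where they overlapped. At days 6 and 9 it had a peak in 1 library each. Over the 4 days the difference of 0.738 kb had adjusted p = 0.371 in the exact permutation test. The summed peak length of the 10 leukocyte markers was also higher in DKO at day 0, where it was 45.6 to 84.7 kb against 37.2 to 41 kb in WT, and at day 9, where it was 19.5 to 23.6 kb against 11.6 to 14.6 kb. It overlapped between the genotypes at days 3 and 6. Most genes were higher in DKO on the same days, with a mean difference above 0 in 86.2% of all genes tested at day 0 and 77.5% at day 9. The part of leukocytes in the values of these members was not tested.

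**Figure D3:**
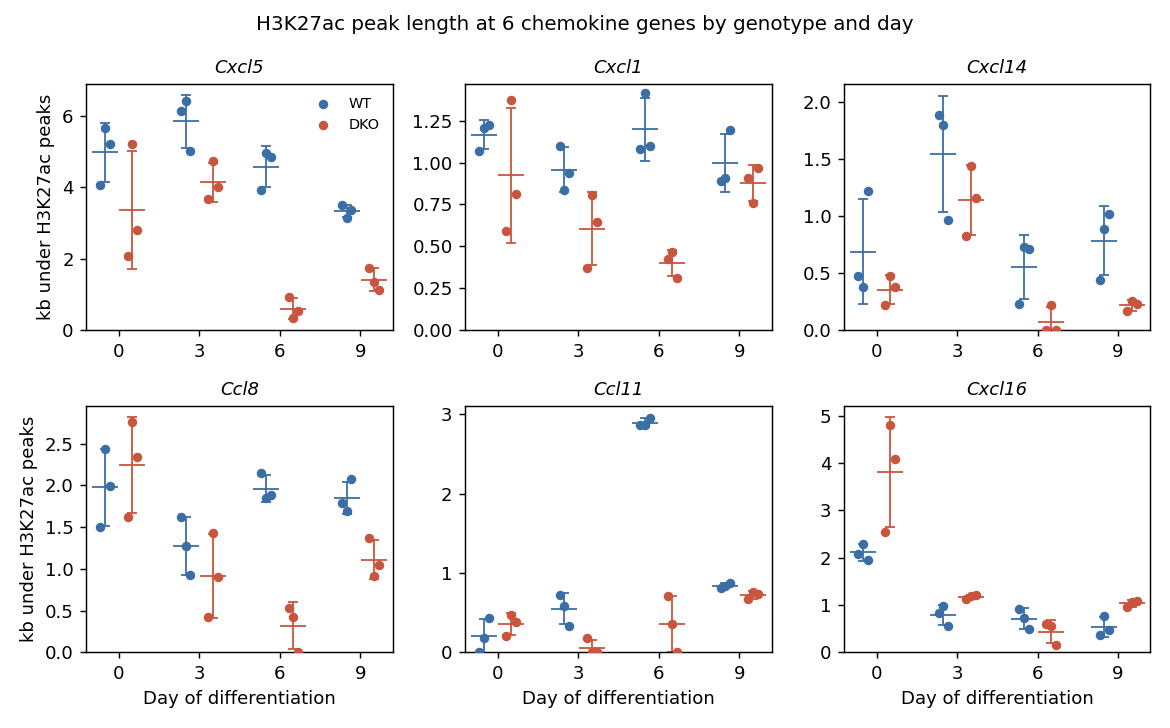
Length under H3K27ac peaks in kb by day of differentiation for Cxcl5, Cxcl1, Cxcl14, Ccl8, Ccl11 and Cxcl16. Each point is a library (3 per genotype and day), the horizontal line is the mean and the bar 1 SD. The DKO points of Cxcl5 lie under all WT points at days 3, 6 and 9, and those of Cxcl16 lie above them at days 0, 3 and 9.

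On a single day, 3 libraries against 3 cannot give an exact p below 0.1, so the genes whose genotypes did not overlap were counted. At day 6, 18 members were lower in all DKO libraries, 50% against 59.6% of all genes, and 0 were higher, against 0.0855%. They included the CXC ligands Cxcl1, Cxcl2, Cxcl5, Cxcl9, Cxcl12, Cxcl14 and Cxcl15. The CC ligands were Ccl2, Ccl7, Ccl8, Ccl9, Ccl11, Ccl25 and Ccl27a, and the receptors Ccr7, Ccr9, Ccr10 and Cx3cr1. Cx3cr1 was apart over its long GENCODE span, whereas over the RefSeq span the genotypes overlapped. At Ccl2, which attracts monocytes, the libraries of day 6 had 2.67, 1.95 and 2.91 kb in WT and 0.412, 0.545 and 0 kb in DKO, and at Ccl7 they had 2.25, 2.94 and 2.92 kb and 1.24, 1 and 0.468 kb. The lists of DKO at day 6 were also short as a whole, with 47448 to 74867 peaks against 98503 to 105511 in WT. With 20000 peaks from every list, 7 of 24 members tested were apart at day 6, 29.2% against 37.6% of all genes.

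At day 0, 10 members were higher in all DKO libraries, 27.8% against 18.4% of all genes, and Cxcl15 was lower, where 0.704% of all genes were. Among the 10 were the receptors Cxcr3, Cxcr4, Cxcr5 and Ccr3 and the ligands Cxcl16, Ccl3, Ccl6, Ccl7 and Ccl27a. Over the RefSeq span of Cxcr5 the genotypes overlapped, with 1.569, 1.66 and 1.978 kb in WT and 1.837, 4.366 and 2.714 kb in DKO. Cxcr4, the receptor of Cxcl12, had 0, 0.314 and 0 kb in WT and 1.27, 2.45 and 0.981 kb in DKO at day 0, and 1.03, 0.962 and 0.262 kb and 0.271, 0 and 0.883 kb at day 3. No library of days 6 and 9 had a peak there. Without DKO day 0 replicate 2 the differences at day 0 were 1.02 kb for Cxcr4 and 2.01 kb for Ccr3, against 1.46 and 2.56 kb with it.

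At day 3, Cxcl1, Cxcl5, Ccl11 and Ccr9 were lower in all DKO libraries, 11.1% against 10.8% of all genes, and Cxcl16 was higher, where 0.862% of all genes were. At day 9, Cxcl5, Cxcl14, Ccl8 and Ccl11 were lower in all DKO libraries, 11.1% against 2.08% of all genes. Cxcl9, Cxcl10, Cxcl12, Cxcl16, Ccl12, Ccr1, Ccr10 and Cx3cr1 were higher, 22.2% against 29.3%. Over the RefSeq span of Cx3cr1 the genotypes overlapped here too. Of all genes tested, 77.5% had a mean difference above 0 at day 9.

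**Figure D4:**
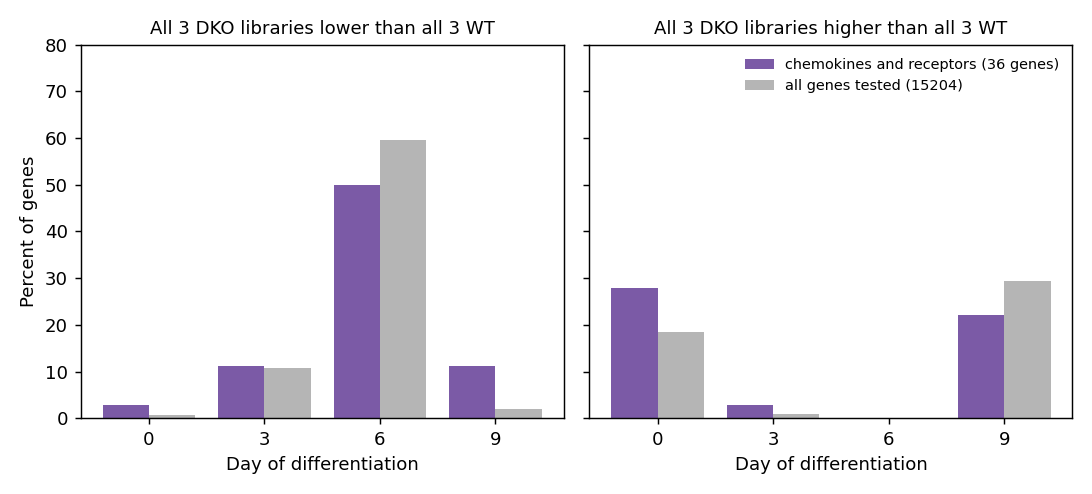
Percent of genes whose 3 DKO libraries were all lower (left) or all higher (right) than the 3 WT libraries, by day of differentiation, for the 36 chemokine and receptor genes tested (purple) and all 15204 genes tested (grey). At day 6 the share that was lower was 50% of the members and 59.6% of all genes, and at day 9 it was 11.1% and 2.08%.

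The next comparison asked whether the genotype difference changed with the day. It was called for 3 of the 36 members, 8.33% against 17.1% of all genes, in an exact permutation test of how uneven the 4 daily differences were. The test exchanges genotypes within days, so its null is that the genotypes are equal on every day. A call alone thus does not show a change with the day. The members were Cxcl12 (adjusted p = 0.0398), Ccl27a (0.0454) and Ccr10 (0.0474). Without DKO day 0 replicate 2 none was called, with adjusted p of 0.0528, 0.0708 and 0.0682 in this order in the exact test, and without WT day 3 replicate 3, 8 members were, 22.2% against 32% of all genes. With 20000 peaks from every list 0 members and 0 of all genes were called, and the adjusted p was 0.145, 0.436 and 0.885 in the exact test. The median difference by day was 0.449, −0.103, −0.426 and 0.124 kb over the members and 0.42, −0.183, −0.532 and 0.226 kb over all genes at days 0, 3, 6 and 9.

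Cxcl12, the ligand of Cxcr4, had 8.83, 10.1 and 9.58 kb in WT and 8.92, 14.6 and 10.2 kb in DKO at day 0, and 6.79, 5.64 and 3.92 kb and 4.13, 5.71 and 4.65 kb at day 3. Its libraries of day 6 had 5.09, 5.86 and 5.84 kb in WT and 3.01, 2.74 and 1.86 kb in DKO, and at day 9 3.21, 4.01 and 3.19 kb and 5.26, 5.44 and 5.53 kb. DKO libraries were all lower at day 6 and all higher at day 9, and overlapped with WT at days 0 and 3.

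Ccl27a, a ligand of Ccr10 known from skin, had 0.707, 0.626 and 0.808 kb in WT and 0.92, 1.64 and 1.28 kb in DKO at day 0, and 1.23, 1.84 and 0.649 kb and 0.762, 0.749 and 0.765 kb at day 3. Day 6 gave 1.31, 1.48 and 1.39 kb in WT and 0.489, 0.205 and 0 kb in DKO, and at day 9 0.4, 0.903 and 1.45 kb and 1.55, 1.55 and 0.862 kb. DKO libraries were all higher at day 0 and all lower at day 6. Its receptor gene Ccr10 had 1.13, 1.59 and 1.63 kb in WT and 1.14, 2.63 and 1.97 kb in DKO at day 0, and 1.51, 1.72 and 0.585 kb and 0.338, 1.08 and 0.714 kb at day 3. At day 6 the values were 2, 2.22 and 2.37 kb in WT and 1.39, 1.28 and 0.666 kb in DKO, and at day 9 1.69, 1.96 and 1.9 kb and 2.71, 2.26 and 2.47 kb. There DKO libraries were all lower at day 6 and all higher at day 9.

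The last comparison set day 9 against day 0 in both genotypes. In an exact permutation test with days exchanged within each genotype, 17 of the 36 members were lower at day 9, 47.2% against 14.8% of all genes, and 4 were higher, 11.1% against 16.4%. The median difference was −0.521 kb over the members, of which 24 were below 0, and 0.0386 kb over all genes. The smallest p this test can give is 0.005, which gave adjusted p = 0.0203, and all calls had that value except Ccr1 with 0.0352 and Ccr9 with 0.0481. With 20000 peaks from every list, 7 of 24 members were called, 29.2% against 10.7% of all genes, and 6 of these were lower, 25% against 6.04%.

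Of the CC ligands, Ccl2, Ccl3, Ccl4, Ccl6, Ccl7, Ccl9 and Ccl12 fell. Ccl9, a ligand of Ccr1, fell by 3.62 kb, from 6.88, 7.59 and 7.58 kb in WT and 7.27, 9.07 and 8.35 kb in DKO at day 0 to 3.52, 4.05 and 4.51 kb and 4.68, 4.29 and 3.96 kb at day 9. Ccl12, a monocyte attractant, fell by 3.59 kb, from 3.41, 3.92 and 3.35 kb in WT and 3.8, 5.37 and 4.39 kb in DKO to 0, 0.25 and 0 kb and 0.845, 1.02 and 0.578 kb. At both genes every library of day 9 lay under every library of day 0. Ccl7 fell by 3.54 kb, from 4.75, 5.34 and 5.4 kb in WT and 5.63, 6.56 and 5.58 kb in DKO to 2.16, 1.81 and 1.85 kb and 2.173, 2.25 and 1.76 kb. Ccl2 fell by 2.9 kb, from 4.16, 4.55 and 4.18 kb in WT and 4.27, 6.58 and 5.01 kb in DKO to 1.56, 2.28 and 2.15 kb and 1.61, 1.23 and 2.5 kb. The libraries of the days were apart at these genes too, and each library of day 9 still had a peak there. Ccl3 and Ccl4, which attract macrophages and T cells, had a peak in every library of day 0, and at day 9 Ccl4 had none over its GENCODE span and Ccl3 had one in 2 DKO libraries. The RefSeq span of Ccl4 also takes in Ccl3, and there it had 0.375, 0 and 0.19 kb in the DKO libraries of day 9.

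Of the other ligands, Cxcl5, Cxcl12, Cxcl16 and Cx3cl1 fell. Cxcl12 fell by 5.94 kb, from the values of day 0 to those of day 9 given above. The region over its start, chr6:117167035-117174677, had a peak in 24 libraries. Farther into the gene, 6 regions that begin 8.93 to 12.6 kb past the start had peaks in 1 to 3 libraries of each genotype at day 0, and later in 1 library of WT at day 6. Cxcl5 fell by 1.79 kb and Cxcl16 by 2.18 kb. Cx3cl1, the membrane-bound ligand of Cx3cr1, fell by 0.414 kb, from 0.602, 0.584 and 0.591 kb in WT and 0.432, 1.28 and 0.519 kb in DKO to 0.175, 0.293 and 0.33 kb and 0.284, 0.193 and 0.256 kb. At days 3 and 6 it had 0.234, 0.347 and 0 kb and 0.162, 0.277 and 0.457 kb in WT and 0.202, 0 and 0.206 kb and 0, 0.249 and 0 kb in DKO, all under the values of day 0 but for 1 WT library of day 6.

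Among the receptors that fell were Cxcr5, Cxcr6, Ccr1, Ccr3 and Cx3cr1. Cx3cr1, a receptor of monocytes and tissue macrophages, fell by 6.33 kb over its long span, from 12.7, 16.2 and 12.9 kb in WT and 13.4, 30.8 and 16.5 kb in DKO at day 0 to 8.24, 9.61 and 10.7 kb and 13.1, 12.1 and 10.8 kb at day 9. Over the RefSeq span it fell by 1.92 kb, from 1.83, 2.57 and 1.95 kb in WT and 1.13, 4.67 and 1.15 kb in DKO to 0, 0.232 and 0.538 kb and 0.262, 0.759 and 0 kb. The days did not overlap on the RefSeq span. Ccr3 fell by 2.67 kb, Cxcr6 by 1.21 kb, Ccr1 by 0.364 kb and Cxcr5 by 3.58 kb, the last by 1.4 kb over the RefSeq span. The leukocyte markers moved with these members. Of 8 tested, 7 fell, namely Ptprc, Adgre1, Csf1r, Itgam, Cd14, Spi1 and Tyrobp, all with adjusted p = 0.0203 in the exact permutation test. The summed length of all 10 was 37.2 to 84.7 kb at day 0 and 11.6 to 23.6 kb at day 9, and Ptprc, which encodes CD45, had no peak in the DKO libraries of day 9 and 0.339 kb at most in WT. Of 5 endothelial markers tested, Pecam1, Cdh5 and Kdr fell. The part of these cells in the values of the chemokine and receptor genes was not tested.

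The members that rose were Cxcl9, Ccl11, Ccr7 and Ccr9. Cxcl9, the interferon-induced T cell attractant, rose by 2.72 kb. It had 1.01, 0.933 and 1.06 kb in WT and 1.01, 2.06 and 1.177 kb in DKO at day 0, and 2.48, 2.97 and 1.2 kb and 1.85, 2.51 and 2.2 kb at day 3. Its libraries of day 6 had 4.21, 3.84 and 4.26 kb in WT and 3.76, 3.84 and 3.08 kb in DKO, and at day 9 3.6, 3.59 and 3.83 kb and 4.4, 4.02 and 4.13 kb. Every library of days 6 and 9 lay above every library of day 0. The region chr5:92323630-92324869, which begins 3.21 kb past the start, had a peak in 0 libraries of day 0, in 4 of day 3 and in all 12 of days 6 and 9. A region 3.4 kb upstream had a peak in 24 libraries.

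Ccl11 rose by 0.502 kb and Ccr7 by 0.416 kb, from the values given above. With 20 kb upstream in place of 5, the span of Ccl11 takes in Ccl7, which fell by 3.54 kb, and the summed length fell by 4.87 kb with adjusted p = 0.0191 in the exact permutation test. Ccr9, a receptor of gut-homing T cells, rose by 2.09 kb, from 2.78, 3.26 and 3.14 kb in WT and 2.58, 6 and 3.34 kb in DKO to 3.96, 5.85 and 6.49 kb and 5.74, 6.15 and 5.43 kb, and 1 DKO library of day 0, the one with wide peaks, lay among those of day 9. Over the RefSeq span the difference was 0.685 kb with adjusted p = 0.199 in the exact test.

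**Figure D5:**
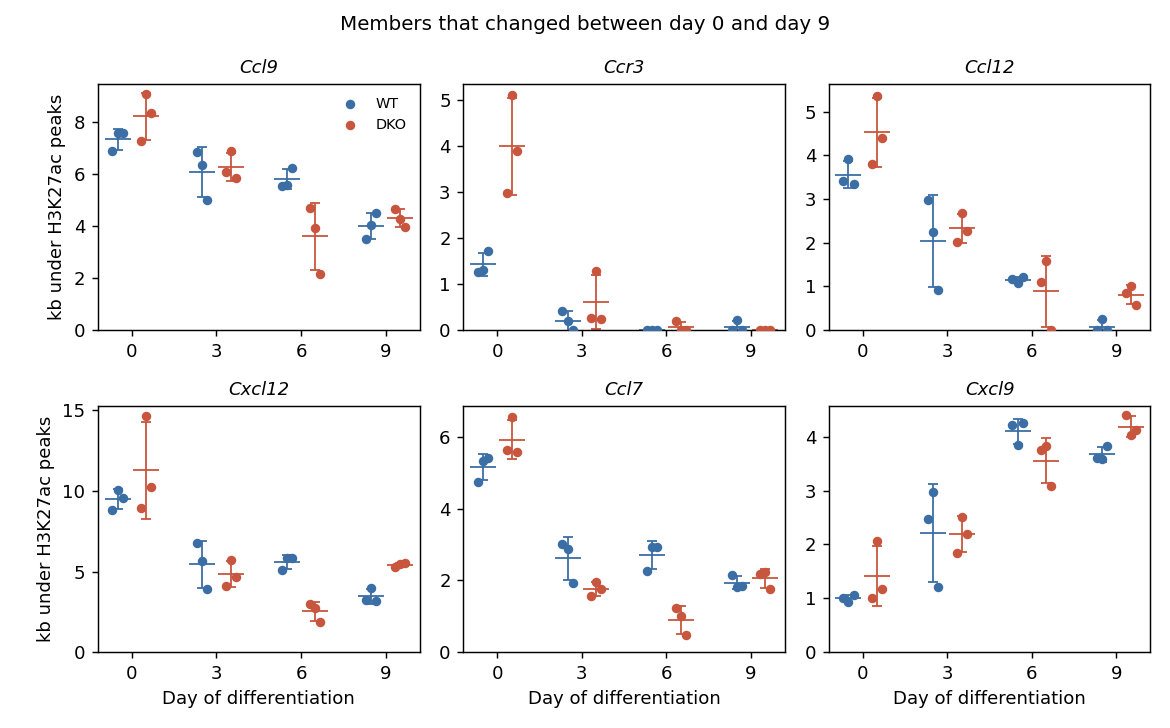
Length under H3K27ac peaks in kb by day of differentiation for Ccl9, Ccr3, Ccl12, Cxcl12, Ccl7 and Cxcl9. Each point is a library (3 per genotype and day), the horizontal line is the mean and the bar 1 SD. The points of Cxcl9 at day 9 lie above all those of day 0, and those of the other 5 genes lie below.

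Other genes of the chemokine system and of its induction were followed as lists, beside all genes tested, of which 14.8% fell and 16.4% rose between day 0 and day 9. Of 9 other chemokine system genes 7 were tested, and Ppbp, Pf4, Xcr1 and Ccrl2 fell by 0.697, 1.49, 2.11 and 0.714 kb between day 0 and day 9. Ackr3, a scavenging receptor of Cxcl12, rose by 2.04 kb (adjusted p = 0.0481 in the exact permutation test). Of 16 genes of the NF-kB pathway, all tested, Nfkb1, Nfkbie and Ikbkb fell by 4.63, 1.48 and 1.39 kb, and of the 2 that rose Tnfaip3, an inhibitor of the pathway, did so by 2.19 kb. Of 7 cytokines that induce chemokines 6 were tested, and Tnf and Lif fell by 2.06 and 2.69 kb. None of the genes on these lists was called for genotype over the 4 days. The test of a genotype difference that changes with the day called 4 of 16 NF-kB genes and 1 of 6 cytokine genes. It called 0 of 7 other chemokine system genes and 17.1% of all genes.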

How the data were processed

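H3K27ac ChIP-seq peak lists of 24 libraries (8 groups of 3) were analysed. The authors sequenced single reads of 75 bp, trimmed them and aligned them to mm10 with BWA, and called narrow peaks with MACS2, 1 list per library. The submitters' processing notes name bcl2fastq 2.17, cutadapt 1.18, BWA 07.17 and MACS2 2.1.1.20160309. Each deposited peak has a fold enrichment at its summit (a ratio to the local background) and the −log10 of its p-value and of its q-value. The lowest −log10 q in a deposited list was 2 to 2.05. Which input served which list is not stated, and the 16 input libraries are not analysed here. Read depth is not in the lists, so no counting interval is given, and a shallower library can lose weak peaks and shorten others.

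The kb under merged peaks in each GENCODE gene span with 5 kb upstream was computed for every protein-coding gene with Python 3.11.15, numpy 2.4.6 and pandas 2.3.3. Peaks in a list were ranked by −log10 q. Genes with a peak in at least 3 libraries were tested by exact two-sided permutation (160000 relabellings over 4 days, 400 for day 9 against day 0, 20 for a single day), with Benjamini-Hochberg adjustment over all genes and a threshold of 0.05. The genotype tests were run on simulated data with independent libraries, no values of 0 and a genotype effect equal on all days. The simulation held no list that was short or wide as a whole, so it does not cover such lists. Values in each library were given for members called for genotype or its change with day, for up to 5 per direction with the largest difference among those with an unadjusted p under 0.05 for genotype or called between days, and for Ccl2, Ccl7, Ccl11, Cxcl1, Cxcl5, Cxcl12, Cxcl14, Cx3cl1 and Cxcr4. Values of some genes that entered the counts are not reported here. The members and gene lists were chosen with earlier results of these data known.

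Alternatives were stricter or equal numbers of peaks, summit windows, other gene spans, the best rank, libraries left out, a replicate block, no filter, and limma 3.58.1 (R 4.3.3) on log2(kb + 0.5). RefSeq gene spans were added as an alternative after seeing the data. Replicate numbers were shared by WT and DKO, and their deviations were compared over all genes.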

Additional observations from a re-analysis of the deposited data

Results flagged for a closer look

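Groups of 3 libraries are too small for a test of single libraries that stand apart. The exact permutation test of a genotype difference that changes with the day called Ccr10 (adjusted p = 0.0474), Ccl27a (0.0454) and Cxcl12 (0.0398). Its null is that the genotypes are equal on every day, so a call alone does not show a change with the day. With 20000 peaks from every list the adjusted p was 0.885, 0.436 and 0.145 in this order, and none was called without DKO day 0 replicate 2.

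At 3 further genes the DKO libraries all lay above the WT libraries on one day and all below them on another. Ccl7 was higher in DKO by 0.758 kb at day 0 and differed by −1.8 kb at day 6. Cxcl9 was higher by 0.511 kb at day 9 and differed by −0.546 kb at day 6, and Cx3cr1 was higher by 2.49 kb at day 9 and differed by −2.63 kb at day 6. The contrast of these pairs of days was not tested on its own, and the exact permutation test over the 4 days gave adjusted p = 0.0531 for Ccl7, 0.218 for Cxcl9 and 0.145 for Cx3cr1. The Cx3cr1 values are over its 168 kb GENCODE span, which holds 5 other genes. Over its RefSeq span the genotypes overlapped on both days. There WT had 0.645, 0 and 0 kb and DKO 0, 0 and 0 kb at day 6. At day 9 they had 0, 0.232 and 0.538 kb and 0.262, 0.759 and 0 kb.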

How the results depend on the processing

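Over the 4 days, 1 member, Cxcl5, was called for genotype. The count was 0 with peaks of −log10 q of at least 5, with 20000 peaks per list, with summit windows, with 20 kb upstream and without replicate 1, 2 or 3 (0 to 0, where the smallest p is 0.00154 and 0 of all genes were called). It was 2 without DKO day 0 replicate 2 (5.56%, against 1.37% of all genes) and 7 with limma (19.4% against 6.56%). With the best rank it was 1, but Ccl8, where a rank beyond the shortest list, or a library without a peak (1 for Ccl8), counted as the end of that list. The change of the genotype difference with day was called for 3 members. The count was 0, with 0 of all genes called too, with 20000 peaks, summit windows, the best rank and without replicate 1, 2 or 3 (0 to 0). It was 0 without DKO day 0 replicate 2 (10.6% of all genes), 1 without the upstream part (3.03% against 11.8%), 8 without WT day 3 replicate 3 (22.2% against 32%) and 14 with limma (38.9% against 36.7%). At day 6, 18 members were apart, against 7 with 20000 peaks (29.2%, and 37.6% of all genes), 6 with summit windows (16.7% and 25.6%) and 7 with the best rank (19.4% and 19.5%), and 21 to 22 without a replicate. Between day 0 and day 9, 21 members were called, against 7 with 20000 peaks (29.2%, and 10.7% of all genes), 7 with summit windows (19.4% and 14.9%) and 12 with the best rank (33.3% and 14.7%). The cause of these changes was not tested. Without a replicate, the comparison of days cannot give p under 0.0556, and it has no value there.

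Whether the replicate numbers pair the samples was not settled. Deviations of WT and DKO libraries with the same number had r of −0.18 to 0.26 over genes, above 0.1 in 4 of 12 pairs. Those with different numbers had r of −0.35 to 0.27, above 0.1 in 2 of 24 pairs. With a replicate block the counts were 0 for genotype, 0 for its change with day and 0 for day 9 against day 0, with Cxcl5 at adjusted p = 0.27 in the exact permutation test, where the smallest p is 0.000488 (0.0312 for the days).

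Of the values of named members under the alternatives other than the replicate block and those without replicate 1, 2 or 3, 196 differences between genotypes kept direction and side of the threshold, 5 lost and 8 gained a call and 17 changed sign, and between days these were 183, 30, 4 and 9. The genotype difference changed sign at Ccl2 with 20000 peaks (0.243 kb) and without upstream (0.00625), at Ccl9 without a replicate (−0.383 to 0.0689), at Ccr10 with summit windows (0.146) and rank (0.232), at Ccl27a with 20000 peaks (0.0146) and at Cx3cl1 with −log10 q of at least 5 (0.0319). At Cxcl9 it did so with summit windows (−0.0112), without a replicate (−0.00563 to 0.167) and without WT day 3 replicate 3 (−0.0387). At Cx3cr1 it did so with summit windows (−0.801), without a replicate (−0.014 to 2.04), with RefSeq spans (−0.0442) and limma (−0.0122). At Cxcl12 it did so with −log10 q of at least 5 (−0.00683), summit windows (−0.318), rank (−0.673), limma (−0.094), without a replicate (−0.357 to 0.336), without DKO day 0 replicate 2 (−0.414) and without WT day 3 replicate 3 (−0.183). Between days the sign changed at Ccl11 with 20 kb upstream (−4.87), at Ccl9 with summit windows (0.418), at Cxcl14 with summit windows (0.076), without a replicate (−0.108 to 0.052) and without DKO day 0 replicate 2 (0.00667), at Cxcl1 with 20000 peaks (0.274), summit windows (0.0085), rank (0.33), without a replicate (−0.196 to 0.0663) and without DKO day 0 replicate 2 (0.00383), and at Cxcl10 with 20 kb upstream (−0.254), without a replicate (−0.0452 to 0.159, the highest without DKO day 0 replicate 2, and −0.00675 without replicate 3). Rank and limma values are on the log2 scale. The number of reads is unknown, so a missing peak does not show that the mark is absent.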
